A study of Homo sapiens with 7 samples.

Results

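The open chromatin of undifferentiated stem cells was compared with that of anterior foregut endoderm, with the definitive endoderm that lies between them left out of the comparison. The members were chosen by their labels alone: 2 ATAC-seq libraries of human embryonic stem cells (hESC) and 2 of anterior foregut endoderm (hAFE), 4 of the 7 libraries of the series. All were made from H1, a long-used human embryonic stem cell line, and the labels name no genotype, allele, dose or day for either group, nor the agents that drove the differentiation. In ATAC-seq the transposase Tn5 cuts and tags DNA that is not packed away, so that reads pile up over open chromatin, and each library was deposited as its own list of peaks. Per the labels the hESC data were taken over from another series and analysed again, which is not said of hAFE, so that stage and series cannot be told apart in any value that follows. The labels do not say whether the replicates of a stage came from separate cultures, and their spread may be technical. The remaining libraries, 2 of definitive endoderm (hDE) and 1 of pharyngeal foregut endoderm (hPFE), were used only to show whether the same regions had peaks there.

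Pluripotent cells keep their state through a small circuit of transcription factors, led by POU5F1 (OCT4), SOX2 and NANOG, which bind many of the same enhancers as well as their own genes. Foregut endoderm is built through FOXA and GATA factors, which can bind closed chromatin, and its anterior part later gives rise to the pharyngeal pouches, thyroid, lung and oesophagus. SOX2 is used in both states, in pluripotent cells and again in the anterior foregut, while SOX17 and CXCR4 mark the definitive endoderm from which the foregut forms.

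Each of the 4 libraries held between 299016 and 299374 peaks and every list ended at a limit of 300000, so that no peak means that a site was not among the strongest peaks of that library. Depth was not given as a number of reads. The genome-wide background per site, which grows with depth, could be recovered from the peak values and was 2.11 and 4.62 in hESC replicates 1 and 2 and 2.22 and 3.85 in hAFE replicates 1 and 2, so that each stage had a shallower and a deeper library. The height of a region is given below as its summit pileup divided by that background. In these bulk samples fewer open cells and less opening per cell cannot be told apart.

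Regions appeared more often than they disappeared between the 2 stages. The 50000 strongest regions of each library were called strong and merged over the 4 libraries into 89723 regions. In 4656 of them, 5.19% of all regions, the site was strong in both hAFE libraries and had no peak in either hESC library (gained). In 2338, 2.61% of all regions, it was strong in both hESC libraries and had no peak in either hAFE library (lost). A further 22015 regions were strong in all 4 libraries (stable). With 2 libraries against 2, an exact two-sided test of a single region cannot go below p = 0.333, and these counts carry no p-value. They were set instead beside the same counts between replicates. Between 1 hAFE and 1 hESC library, 9447 to 13645 regions were strong in hAFE and without a peak in hESC, and 7424 to 8552 were strong in hESC and without a peak in hAFE. Between the replicates of 1 stage the count was 653 and 898 for hAFE and 1053 and 2151 for hESC, lower than in every pair of stages. Strong and no peak did not mean the same in each library. The median height of strong regions was 13.3 and 23.2 in hESC and 33.8 and 19.0 in hAFE. The weakest strong region had a −log10 p of 8.89 and 36.2 in hESC and 28.0 and 21.1 in hAFE. The weakest listed peak had 2.23 and 4.77 in hESC and 2.68 and 2.64 in hAFE. What this adds to the gained and lost counts was not tested.

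**Figure D1:**
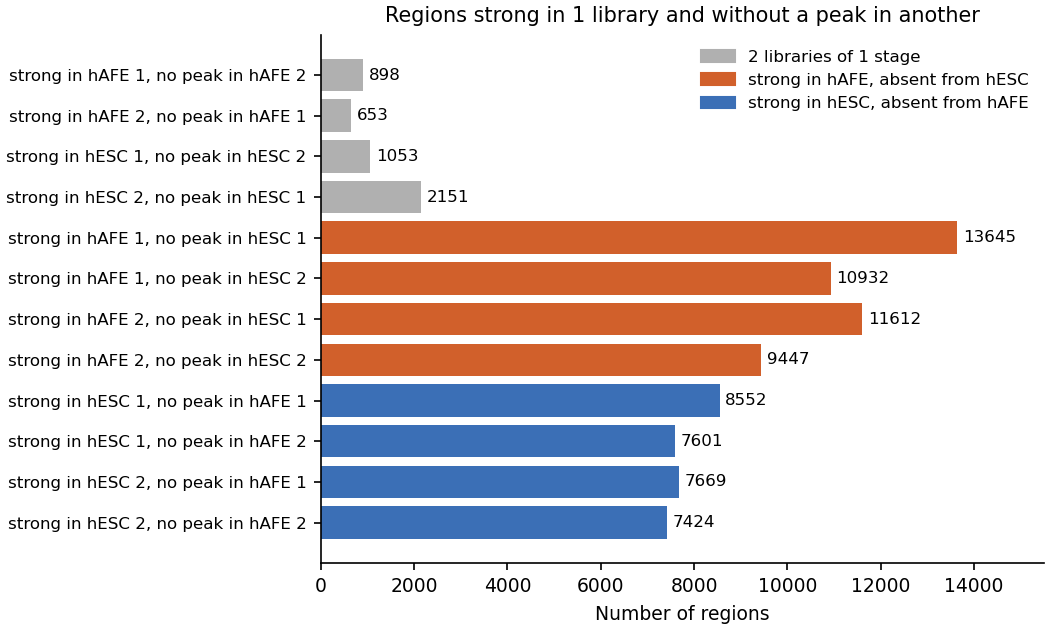
Number of regions (horizontal axis) that were strong in 1 library and had no peak in another, for every ordered pair of the 4 libraries; grey bars compare replicates of 1 stage and coloured bars compare hAFE with hESC. The 4 grey bars end between 653 and 2151 and the 8 coloured bars between 7424 and 13645.

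Gained and lost regions lay far from gene ends. Among gained regions 2.08% lay within 1 kb of an end of a protein-coding gene, among lost regions 2.65%, and among stable regions 49.1%, beside 17.1% of all regions. Their median width, 539 bp for gained and 591.5 bp for lost regions, was near the 562 bp of all regions, and stable ones were wider, at 935 bp. Gained regions had a median height of 31.1 and 15.6 in the hAFE replicates, where stable regions had 53.2 and 33.5. Lost regions had a median height of 10.9 and 19.3 in the hESC replicates, where stable regions had 19.9 and 32.7.

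Heights could be tested where all 4 libraries had a peak, in 52849 regions. The test was limma on log2 height, centred on the median of each library, with Benjamini-Hochberg adjustment over all of these regions, an adjusted p under 0.05 and a log2 difference of at least 1. By this test 4950 regions (9.37%) were higher in hAFE and 3659 (6.92%) were lower. The scaling bears on these counts: after quantile normalization 3067 were higher and 2894 lower, and without any centring 1542 were higher and 285 lower, which moves the share of higher calls from 57.5% to 84.4%. Lower calls were in the majority on the deposited fold over the local background (2108 higher, 3064 lower), without the trend term (2871 and 3627) and without hAFE replicate 2 (2399 and 2812), so that the balance of higher and lower has no fixed direction. Heights were spread more widely in the hAFE libraries (SD of log2 height 1.29 and 1.26) than in the hESC libraries (0.90 and 0.99). Stable regions by gene ends were sensitive to the scaling: there 1158 were higher with median centring and 82 after quantile normalization. In all, 2928 higher and 2700 lower regions were called under both scalings, 59.2% and 73.8% of the calls with centring. Each region described below as higher or lower was called in that direction under both. The SE given with a log2 difference is that of limma, which draws on the spread of regions of like mean height. It is not the spread of the region's own replicates, and the adjusted p rests on it too. It was 0.373 near RAB10, with 3.79 and 10.6 in hESC and 188 and 78.7 in hAFE. Near HNMT, with 7.11 and 6.06 in hESC and 131 and 116 in hAFE, it was 0.370. A region entered this test if it was strong in any 1 library, so that most of those named below came in through the stage where they were high.

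The stage labels were first set against marker genes. As background, 13.4% of all genes with a region had a gained and 7.46% a lost one, and 20.0% had a gained or higher and 15.7% a lost or lower one. All 8 stem cell marker genes had a region: 7 had a lost or lower one, TDGF1 had none, and SOX2 also had a higher one. Strong regions near these genes numbered 37 and 40 in the hESC libraries and 18 and 21 in the hAFE libraries. LIN28A, counted by 1 lost region, had 6 and 5 strong regions in hESC and 5 and 6 in hAFE. Its tallest peak within 1 kb of a gene end stood at 20.9 and 31.6 in hESC and 71.2 and 43.9 in hAFE, without a call under both scalings. Of 8 foregut endoderm marker genes, SOX2 among them again, 5 had a gained or higher region and 2 a lost or lower one, with 24 and 32 strong regions in hESC and 40 and 39 in hAFE. KRT19 and EPCAM, which epithelial endoderm expresses, were among the genes without a called region. At the KRT19 gene end the heights were 21.3 and 64.1 in hESC and 110 and 52.5 in hAFE, so that the groups overlapped.

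Lost regions were more frequent around pluripotency genes than around all genes. Of 33 pluripotency genes with a region, 15 had a lost region (45.5%) and 4 had a gained one (12.1%), where 7.46% and 13.4% of all 17391 protein-coding genes with a region did so. These genes carry more regions than most, with a median of 5 per gene against 3, so the share of regions is the closer comparison: 20 of their 218 regions were lost (9.17%) and 6 were gained (2.75%), against 2.14% and 4.24% of the regions of all genes. The genes with a lost region were POU5F1, NANOG, SOX2, OTX2, SALL1, DPPA2, DPPA4, LIN28A, PRDM14, ZFP42, TRIM71, DNMT3B, SFRP2, FGF2 and KLF4. By limma, 14 of the genes had a region called lower with median centring and 6 a region called higher, beside 13.4% and 19.1% of all genes with a tested region. The list was written with earlier results of these data known.

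NANOG, a homeodomain factor of the core circuit, lost its promoter peak. The region at chr12:7789187-7789463 (hg38) had a height of 9.48 and 25.8 in hESC replicates 1 and 2 and no peak in either hAFE library. Its peaks in the hDE libraries stood at 6.55 and 13.9, and hPFE had none. A region upstream at chr12:7787490-7788159 fell from 16.1 and 39.4 in hESC to 9.46 and 3.90 in hAFE, a log2 difference of -2.36 ± 0.49 (SE, n = 2 and 2, limma adjusted p = 5.78e-05). A region in the gene at chr12:7798717-7799529 fell from 17.5 and 44.4 to 4.50 and 8.31, a log2 difference of -2.49 ± 0.48 (limma adjusted p = 9.81e-06). Without centring, both kept their direction and missed the threshold (adjusted p = 0.0811 and 0.0613). In both, each hESC library lay above each hAFE library, as in 3264 of all 3659 regions called lower with centring. None of the 3 NANOG regions was strong in either hAFE library. NANOG has a duplicated copy nearby on the chromosome, and the labels do not say how reads that match both were placed.

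The NANOG promoter is shown because the lost peak lies on it. The sequence is from RefSeq (GRCh38.p14), the 250 bases before the start of the gene at chr12:7789152-7789401 on the plus strand, and the capitals mark the octamer letters bound by POU5F1 (TTTGCAT) and the SOX letters next to them (ACAATG), which begin 120 and 112 bases before the start.
NANOG promoter: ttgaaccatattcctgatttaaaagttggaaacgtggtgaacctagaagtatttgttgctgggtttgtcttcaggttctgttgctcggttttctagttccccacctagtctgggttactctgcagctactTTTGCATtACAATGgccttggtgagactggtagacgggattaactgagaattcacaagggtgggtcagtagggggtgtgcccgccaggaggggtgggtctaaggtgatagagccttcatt

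Few promoters were gained or lost. Of 34961 RefSeq promoter windows, 250 bases before to 50 after a start, 59 overlapped a gained and 40 a lost region. The octamer TTTGCAT, searched on both strands, was in 7 of the 40 lost promoters (17.5%) and in 0 of the 59 gained ones, beside 4.45% of all windows and 2.67% of those at stable regions. The SOX letters ACAATG were in 17.5% of lost and 20.3% of gained promoters, against 10.7% of all windows. The FOXA letters TGTTTAC were in 11.9% of gained promoters (7 windows) and 5.0% of lost ones (2 windows), against 3.42% of all, and the GATA letters AGATAAG in 8.47% and 5.0%, against 2.67%. The GC-rich letters GGGCGG of SP and KLF factors were in 11.9% of gained, 35.0% of lost and 73.1% of stable promoters. These are counts of letters in small groups, without a test, and a match is no sign of binding.

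The octamers of the lost promoters are shown with up to 10 bases on either side, as read along the strand of the gene, with the octamer or its reverse complement in capitals. They are from RefSeq GRCh38.p14. KCNIP1 (a potassium channel partner), SCN1A (a sodium channel) and NANOG are protein-coding, and the others are not protein-coding genes of the table.
NANOG, chr12:7789272-7789298: tgcagctactTTTGCATtacaatggcc
KCNIP1, chr5:170353237-170353262: ttctccgagATGCAAAccaggccact
SCN1A, chr2:166149263-166149289: catgatttccATGCAAActcccagcct
TMC5-AS1, chr16:19488123-19488149: cacctttcaaATGCAAAccaaccaatc
LOC105370953, chr15:85898590-85898616: ggctccatacTTTGCATtggataagcc
LOC105375219, chr7:30727375-30727401: aatctagcaaTTTGCATgactcaagct
LOC124900815, chr4:173517854-173517880: ggccctcggaATGCAAAaggcgaaagc
The capitals fall between 104 and 241 bases before the start.

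POU5F1, also known as OCT4, lost a site away from the gene. Of its 5 regions, 3 could be tested, of which 1 was called lower, and 1 region was stable. Within 1 kb of a gene end the tallest peak stood at 26.5 and 48.9 in hESC and 13.1 in hAFE replicate 1. In hAFE replicate 2 there was none, so that this difference was not tested. At chr6:31180441-31181002, 9759 bases from the gene's nearest end, the heights were 9.00 and 27.9 in hESC and no peak was called in hAFE, hDE or hPFE. At chr6:31172869-31173297 the height fell from 12.8 and 48.1 in hESC to 6.31 and 8.57 in hAFE, a log2 difference of -2.06 ± 0.47 (limma adjusted p = 3.41e-04). Without hESC replicate 2, the taller library there, that difference was -1.49 with an adjusted p of 0.183 and was no longer called. On the deposited fold over the local background it was -0.47 with an adjusted p of 0.606, and without centring -1.75 with 0.145.

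SOX2, which is used in pluripotent cells and in foregut, changed in both directions at different sites. The region over the gene, chr3:181710413-181712114, was strong in all 4 libraries, at 24.6 and 47.8 in hESC and 41.4 and 40.3 in hAFE, and did not pass the test. Farther off, 42118 bases from the gene end, chr3:181756554-181757199 fell from 23.7 and 51.1 to 6.76 and 5.71, a log2 difference of -2.79 ± 0.45 (limma adjusted p = 1.09e-07), and beside it chr3:181756041-181756485 was lost from 13.7 and 19.3. Closer to the gene, chr3:181741412-181741917 rose from 5.69 and 10.4 to 31.5 and 33.8, a log2 difference of +1.78 ± 0.44 (limma adjusted p = 0.00114). Without hAFE replicate 2 the rise was +1.36 with an adjusted p of 0.141, and without centring it was +2.09 with 0.0757. At the lower and higher sites the groups did not overlap, as in 3264 of all 3659 regions called lower with centring and 4853 of all 4950 called higher. A lost site has no hAFE peak by definition.

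Other genes of the pluripotent state lost sites that were as tall. OTX2, a homeodomain factor of primed pluripotent cells and of the anterior embryo, had 3 lost regions, and another at chr14:56846896-56847756 fell from 23.2 and 58.0 to 4.50 and 3.12, a log2 difference of -3.59 ± 0.50 (limma adjusted p = 2.16e-10). OTX2 was one of the 10 largest falls among all tested regions. DPPA4, a chromatin protein found in pluripotent cells, lost the region over a promoter at chr3:109337411-109337985, at 16.6 and 23.8 in hESC. Both hDE libraries held a peak there (26.1 in replicate 2), and neither hAFE nor hPFE did. SFRP2, a secreted WNT antagonist, lost a tall region 829 bases from its end, with 35.1 and 44.4 in hESC and no peak in any of the other 5 libraries. TRIM71, an RNA-binding protein of early embryos, lost 2 regions, at 18.5 and 35.5 and at 17.1 and 39.4 in hESC. FGF2, the growth factor that sustains these cultures, lost a region at 13.3 and 38.7, and the region over the gene fell from 27.5 and 57.1 to 17.1 and 23.1, a log2 difference of -1.30 ± 0.37 (limma adjusted p = 0.00609). KLF4, ESRRB, PODXL and LEFTY2 had gained regions. With median centring PODXL also had 2 regions called higher and 2 called lower, and ESRRB had 1 called lower. The tallest gained region was near ESRRB, a nuclear receptor, at 83.3 and 22.6 in hAFE, and KLF4 had 2 gained and 1 lost.

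**Figure D2:**
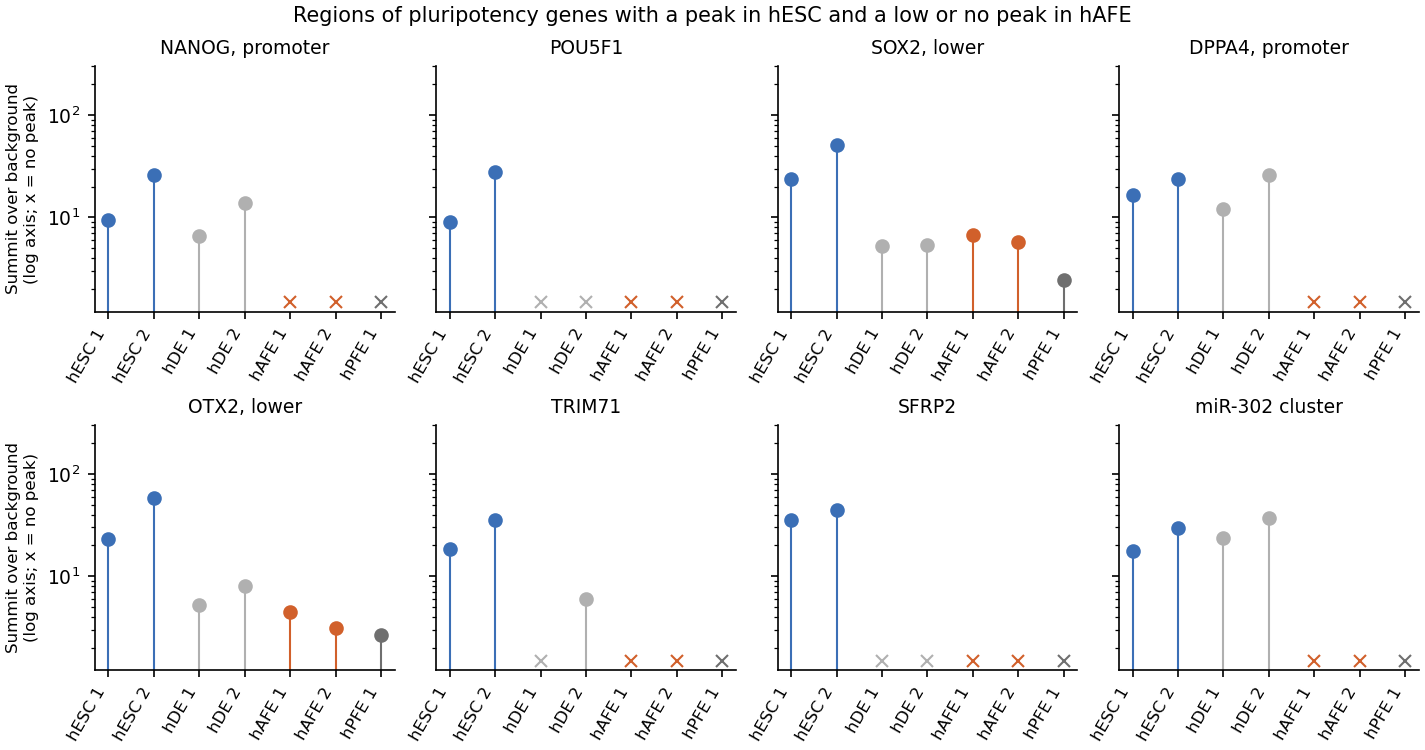
Height of a region (summit over background, log axis) in each of the 7 libraries, 1 panel per region, with a cross where the library had no peak; blue is hESC, orange hAFE, light grey hDE and dark grey hPFE. The panels were chosen among lost or lower regions, so that the hESC libraries lie above the hAFE libraries in all 8. At NANOG, DPPA4 and the miR-302 cluster the hDE libraries still had peaks, and OTX2 had low ones there (5.24 and 7.93).

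The same direction held at the cluster of miR-302 and miR-367, the main microRNAs of pluripotent cells, a look-up that was added after the data were seen. Of 1558 hairpins in the RefSeq table, 462 had a region within 2 kb, and of those 6 had a gained region (1.3%) and 16 a lost one (3.46%). The cluster is shown by its mature strands, with the seed (bases 2 to 8) in capitals. The 4 miR-302 members share the seed AAGUGCU and miR-367 has another.
miR-302a-3p: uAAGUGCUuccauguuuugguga
miR-302b-3p: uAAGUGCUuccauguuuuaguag
miR-302c-3p: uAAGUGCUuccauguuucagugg
miR-302d-3p: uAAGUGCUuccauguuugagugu
miR-367-3p: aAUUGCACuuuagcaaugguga
The hairpins lie on the minus strand of chromosome 4. A region at chr4:112645384-112646347, 1527 bases from the miR-367 hairpin, stood at 17.5 and 29.7 in hESC. Both hDE libraries held it as well (23.8 and 37.1), and hAFE and hPFE had no peak. A region on the other side of the cluster, chr4:112648619-112649176, fell from 24.2 and 34.2 in hESC to 6.76 and 8.57 in hAFE, a log2 difference of -2.22 ± 0.45 (limma adjusted p = 4.23e-05). Neither region covers a hairpin of the cluster. In these files accessibility of sites within 2 kb of the hairpins was measured, not the level of any microRNA. Of the 3 hairpins of miR-9, a microRNA of neural tissue, miR-9-3 had a lost region (20.4 and 38.3 in hESC), miR-9-2 a lower one (log2 difference -2.12 ± 0.55, limma adjusted p = 0.00193), and miR-9-1 a stable one with a log2 difference of -0.84 ± 0.38 that did not pass (limma adjusted p = 0.0958, and 0.0347 after quantile normalization). The difference between the hairpins was not tested. Other hairpins were looked up too. Those of miR-302e, miR-302f, miR-371a, miR-371b, miR-372 and miR-373 had no region within 2 kb, nor had miR-200b and miR-429. Near miR-200c, miR-141 and miR-205 no tested region was called. A lost region lay near each of miR-135b and miR-138-1. miR-375, a microRNA of endocrine and gut endoderm, had a higher region, from 11.8 and 13.0 in hESC to 79.7 and 39.2 in hAFE, a log2 difference of +1.87 ± 0.38 (limma adjusted p = 3.36e-05). A second region, which begins at the hairpin, was stable, at 20.9 and 30.1 in hESC and 119 and 45.5 in hAFE. Its log2 difference of +1.25 ± 0.34 passed with centring (limma adjusted p = 0.00331) but not after quantile normalization (0.109).
miR-375-3p: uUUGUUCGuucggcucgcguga

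Gained regions lay near many endoderm genes. Of 28 definitive endoderm and mesendoderm genes with a region, 9 had a gained region (32.1%) and 1, OTX2, a lost one. Of 34 anterior foregut genes, 11 had a gained region (32.4%) and 3 a lost one. Of 29 pharyngeal endoderm genes, 11 had a gained region (37.9%) and 3 a lost one. Beside the 13.4% of all genes these shares are large, but these genes have a median of 5.5 to 7.5 regions each. By region, 7.41% of the pharyngeal regions, 5.38% of the definitive endoderm regions and 4.58% of the anterior foregut regions were gained, against 4.24% for all genes, so that by region the lists stood closer to the background than by gene.

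FOXA2, a pioneer factor of all endoderm, was higher at 3 sites, gained 1 and was lower at 1. The region at its gene end, chr20:22584142-22585467, rose from 11.4 and 20.3 in hESC to 88.7 and 53.8 in hAFE, a log2 difference of +1.88 ± 0.36 (limma adjusted p = 9.34e-06). It stood at 37.3 and 61.2 in hDE. A distal region, chr20:22490574-22491438, rose from 6.64 and 13.4 to 78.4 and 46.0, a log2 difference of +2.37 ± 0.39 (limma adjusted p = 1.32e-07). The gained site, chr20:22523740-22524523, stood at 26.1 and 10.1 in hAFE. The lower site, chr20:22663236-22664096, fell from 13.7 and 21.2 to 3.60 and 5.71, a log2 difference of -2.21 ± 0.58 (limma adjusted p = 0.0023). On the deposited fold over the local background the gene end difference was +1.16 with an adjusted p of 0.0606. The fall at the lower site was not called without centring (adjusted p = 0.084) or without hAFE replicate 1 (0.0666).

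SOX17 and CXCR4, both markers of definitive endoderm, had higher regions in hAFE. A region 35085 bases from the SOX17 gene rose from 4.74 and 5.19 to 51.4 and 44.7, a log2 difference of +2.97 ± 0.45 (limma adjusted p = 5.93e-09), while the region at its gene end had 13.3 and 14.9 in hESC and 13.5 and 10.1 in hAFE and did not pass the test. A distal region nearest to CXCR4, a chemokine receptor, at chr2:136215462-136216057, rose from 3.32 and 4.55 to 89.6 and 41.3, a log2 difference of +3.67 ± 0.45 (limma adjusted p = 1.97e-13). A second CXCR4 region was gained, at 35.6 and 12.7 in hAFE. GATA4, a zinc-finger factor of endoderm and heart, gained a region at 41.0 and 18.4 that had no peak in hDE or hPFE. GATA6, its relative, had 1 higher region, from 3.32 and 5.19 to 24.8 and 10.4 (log2 difference +1.65 ± 0.60, limma adjusted p = 0.0387), which was not called in 7 of the other settings tried, the omission of any 1 library included. EOMES, a T-box factor of early endoderm, had 1 lower region, chr3:27728317-27729106, which fell from 26.1 and 26.0 in hESC to 10.8 and 14.8 in hAFE and was tallest in hDE, at 37.6 and 57.8 (log2 difference -1.34 ± 0.42, limma adjusted p = 0.0136). Leaving out either replicate 1 ended that call, with an adjusted p of 0.293 without hESC replicate 1 and 0.324 without hAFE replicate 1. It was not called on the deposited fold (0.488), without centring (0.388), with the replicate number as a block (0.0569) or without trend (0.0861).

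Genes of the pharynx had gained and higher sites. EYA1 and EYA2, transcription co-activators of the pharyngeal pouches, had 3 gained regions each, the tallest at 50.5 and 17.4 in hAFE for EYA1 and 79.3 and 33.2 for EYA2. None of the gained EYA1 regions had a peak in hPFE. The tallest of them had a peak of 13.2 in hDE replicate 2, and another had 5.90 and 20.2 in hDE. RIPPLY3, a repressor that acts in the caudal pharynx, gained a region at 75.2 and 39.0. NKX2-3, a homeodomain factor of pharyngeal endoderm, had 3 higher regions. The one over the gene, chr10:99532656-99533228, rose from 9.00 and 26.8 to 95.5 and 56.9, a log2 difference of +1.94 ± 0.36 (limma adjusted p = 3.26e-06). Another, chr10:99521377-99522057, was not called on the deposited fold (adjusted p = 0.293), and the third depended on every library but hESC replicate 1, with an adjusted p of 0.143 to 0.250 when one of the others was left out. With the replicate number as a block its adjusted p was 0.0536. PAX1 had 1 higher region, from 17.1 and 23.8 to 111 and 40.3 (log2 difference +1.43 ± 0.35, limma adjusted p = 9.33e-04), and 1 lower. Without hAFE replicate 1 the PAX1 rise was +1.07 with an adjusted p of 0.117, and on the deposited fold it was +0.22 with an adjusted p of 0.681. Neither PAX1 region was called without centring (0.079 and 0.127). PAX9, a paired-box factor of the pouches, had a tall stable region at 31.7 and 68.0 in hESC and 80.2 and 82.1 in hAFE that did not pass the test, and 1 lower region, from 12.3 and 32.0 in hESC to 3.60 and 3.90 in hAFE (log2 difference -2.71 ± 0.59, limma adjusted p = 1.3e-04). TBX1, the T-box factor of the pharynx, had 2 regions, both with peaks in the hAFE libraries (32.0 and 35.1 in replicate 1) and none in hESC, but strong in hAFE replicate 1 alone. HOXA3 had no gained or lost region and no region called under both scalings. GATA3, a zinc-finger factor of pharyngeal derivatives and of early mesendoderm, gained a region over a promoter at 68.5 and 38.7, with 21.2 and 20.5 in hDE.

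**Figure D3:**
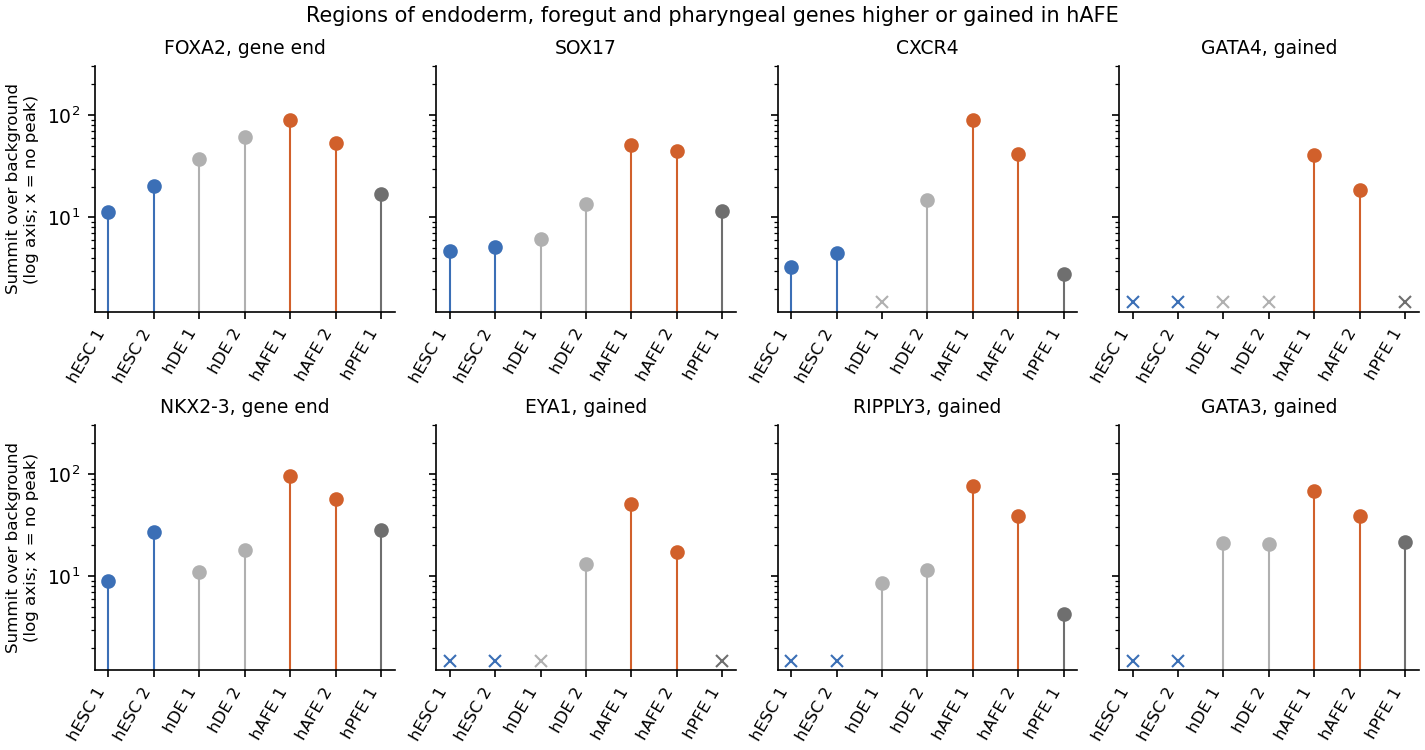
Height of a region (summit over background, log axis) in each of the 7 libraries, 1 panel per region, with a cross where the library had no peak; colours are blue for hESC, orange for hAFE, light grey for hDE and dark grey for hPFE. The panels were chosen among gained or higher regions. By that choice the hAFE libraries lie above the hESC libraries in all 8 panels, and the 4 gained regions have crosses in both hESC libraries.

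Epithelial genes had gained and no lost regions at this threshold. Of 31 genes of junctions and keratins, 8 had a gained region (25.8%) and 0 a lost one, where 7.46% of all genes had a lost one. The gained regions were near DSP (desmoplakin, of desmosomes), PARD3 (of the polarity complex), ESRP1 (an epithelial splicing factor), GRHL1, GRHL2, KRT18, OCLN and PKP2. PARD3 had 61.3 and 28.6 in hAFE and DSP 51.8 and 19.0. By region the gained share was 4.62%, near the 4.24% of all genes, and with 100000 strong regions per library 8 of these genes had a lost region.

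Among signalling genes the BMP and TGF-beta list held the most gained regions, 24 of 348 (6.90%), against 10 lost (2.87%), where all genes had 4.24% and 2.14%. They fell on receptors (BMPR1B with 4, TGFBR3 and BMPR2 with 2 each), ligands (BMP2 with 3, BMP7 with 2) and the decoy receptor BAMBI with 2. The tallest near BMPR1B stood at 65.8 and 36.6 in hAFE and near BMP2 at 40.1 and 20.3. SMAD7, an inhibitor of the pathway, lost a region at 13.3 and 68.4 in hESC, where the replicates differed widely. In the FGF list 14 of 236 regions were gained (5.93%) and 5 lost (2.12%). FGFR1 and FGFR2, receptors, had both kinds, and the lost FGFR1 region stood at 30.8 and 73.8 in hESC. The Notch list had 7 gained (5.43%) and 2 lost (1.55%) of 129, with JAG1, a ligand, holding 2 gained and a higher region that rose from 4.27 and 8.01 to 107 and 46.5 (log2 difference +3.29 ± 0.41, limma adjusted p = 4.4e-13). The WNT list had 16 gained (3.85%) and 6 lost of 416, below the share of all genes in both directions. LEF1, a WNT effector, gained a region at 82.9 and 37.9. TCF7L1, a WNT repressor of stem cells, had a lost, a lower and a higher region. The retinoic acid list had 8 gained (4.35%) and 3 lost (1.63%) of 184, near the shares of all genes, among them RXRA, a retinoid receptor, with a gained region at 129 and 54.0. The hedgehog list was the one signalling list with more lost than gained regions, 7 (4.32%) against 4 (2.47%) of 162. GLI2, the effector of the pathway, held 3 of the lost ones, the tallest at 16.1 and 47.0 in hESC, and 1 gained.

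**Figure D4:**
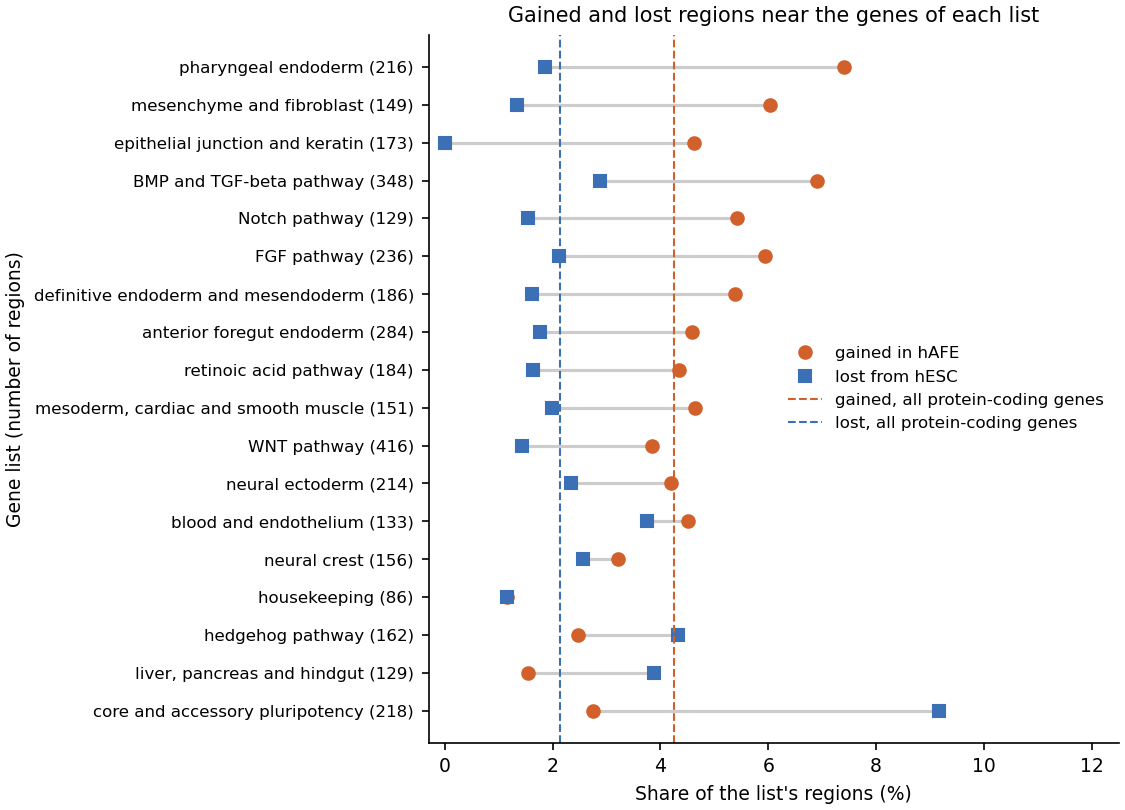
Share of each list's regions (percent) that were gained in hAFE (orange circles) or lost from hESC (blue squares), with the shares over all protein-coding genes as dashed lines and the number of regions in brackets. Pluripotency genes have 9.17% of regions lost and 2.75% gained, and pharyngeal endoderm genes 7.41% gained and 1.85% lost.

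Lists of other cell types that such cultures can hold had gained and lost regions as well, and their part in the results above was not tested. The mesenchyme and fibroblast list had 9 gained (6.04%) and 2 lost of 149 regions, a gained share above that of the definitive endoderm and anterior foregut lists, while the hESC libraries had 73 and 82 strong regions near its genes and the hAFE libraries 75 and 82. Its genes included FBN1 and COL5A2, which encode matrix proteins, with 2 gained regions each. The mesoderm list had 7 gained (4.64%) and 3 lost (1.99%) of 151, near the 4.24% and 2.14% of all genes, of which 4 gained were near WT1. The neural ectoderm list was as near, with 9 (4.21%) and 5 (2.34%) of 214. The blood and endothelium list had 6 (4.51%) and 5 (3.76%) of 133, and the neural crest list 5 (3.21%) and 4 (2.56%) of 156. In liver, pancreas and hindgut genes 2 regions were gained (1.55%) and 5 lost (3.88%) of 129, among the lost ones regions near AFP, NEUROG3, ONECUT1 and PROX1. Of 28 housekeeping genes with a region 1, TOP1, had a gained and a lost region, each 1.16% of the 86 regions of the list.

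Over all genes, PLB1 (a phospholipase) and PSD3 had the most gained regions, 5 each. The next were ASPH, BMPR1B, AGBL1, UNC13C, WT1, ANGPT2, SMOC1 and LMNTD1 with 4 each. The tallest of the PLB1 regions stood at 80.2 and 23.9 in hAFE and of the AGBL1 regions at 93.7 and 33.5. LRATD2 had the most lost regions, 4, with 1 gained between them that stood at 90.5 and 45.2. LOC124903233, QRSL1, PLXNA4, CCDC85A, AUTS2, PRICKLE1, TNR, SDK1 and GLI2 had 3 lost each. A region is given here by the nearest gene end, which is no evidence that it acts on that gene.

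The largest rise in height was in MPDZ, a scaffold of tight junctions, at chr9:13181615-13182139. It had 4.27 and 5.63 in hESC and 159 and 97.4 in hAFE, a log2 difference of +4.36 ± 0.38 (limma adjusted p = 3.99e-25), and 15.9 and 39.5 in hDE. The next regions with a gene were near LOC124901498, NEURL1B, RAB10, TPRG1, HNMT and EDARADD, at +3.93 to +4.00. HNMT, a histamine methyltransferase, had the hAFE replicates closest together, at 131 and 116 against 7.11 and 6.06. The largest fall was in UST, a sulfotransferase, at chr6:149014344-149015216, from 37.9 and 42.0 in hESC to 3.60 and 2.60 in hAFE, a log2 difference of -4.01 ± 0.51 (limma adjusted p = 3.93e-12). The falls near OTX2, CPS1 and POU4F1 were the other ones near a gene among the 10 largest, and POU4F1, a neuronal POU factor, went from 37.0 and 62.3 to 6.76 and 4.42 (log2 difference -3.44 ± 0.44, limma adjusted p = 2.55e-12). Regions picked as the largest changes are set apart by that choice. The groups did not overlap in them, as in 4853 of all 4950 regions called higher with centring and 3264 of all 3659 called lower.

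The libraries of the other stages showed where these differences stood before and after hAFE. Of the 4656 gained regions, 42.8% had a peak in both hDE libraries and 35.8% in neither, and 52.2% had one in hPFE. Of the 2338 lost regions, 35.7% still had a peak in both hDE libraries and 37.1% in neither, and 11.1% had one in hPFE. Over all regions 69.6% had a peak in both hDE libraries and 60.2% in hPFE. Peaks in both hDE libraries and none in hPFE were found in 727 lost regions (31.1%), as at NANOG, DPPA4 and the miR-302 cluster, against 20.3% of all regions. No hDE peak and an hPFE peak were found in 897 gained regions (19.3%), against 5.54% of all. A further 770 gained regions (16.5%) had no peak in hDE or hPFE, as did 9906 of all 89723 regions. The hDE libraries share their labelled origin with hESC, and the hPFE library with hAFE, and hDE replicate 2 was the deepest library (background 7.94), so that stage, series and depth cannot be told apart here. When only strong peaks were counted, 15.7% of gained regions had one in both hDE libraries, 75.9% in neither and 23.2% in hPFE, and 57.8% had none in these 3 libraries. For lost regions the shares were 6.33% in both hDE libraries, 86.7% in neither and 1.41% in hPFE.

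**Figure D5:**
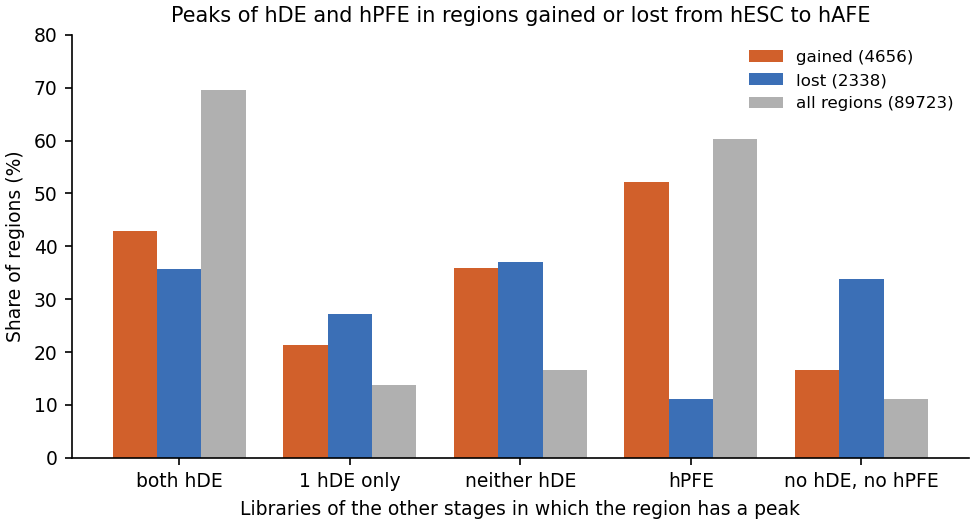
Share of gained, lost and all regions (percent, bars) with a peak in both, 1 or neither of the hDE libraries, in the hPFE library, or in none of these 3. Lost regions had an hPFE peak in 11.1% and gained regions in 52.2%.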

How the data were processed

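Peak lists of 4 ATAC-seq libraries (hESC 1 and 2, hAFE 1 and 2) were compared, and those of hDE and hPFE were looked up. Per the submitters' processing notes the build was hg38 and DiffBind was used. The aligner and peak caller are not stated in the labels or file headers. Deposited lists hold, per peak, a fold enrichment over a local background (a ratio), −log10 p and −log10 q, and a score, the authors' display value, which was not used. Each library was listed separately. The summit pileup and background were recovered from the deposited fold and −log10 p, in 100% of peaks within a share of 0.001 of −log10 p.

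Overlapping peaks of a library were merged and ranked by −log10 p. Over the autosomes and X, the top 50000 of each library were joined wherever they shared at least 1 bp. Regions were assigned to the protein-coding gene (RefSeq GRCh38.p14, 19974 genes) with the nearest end within 100 kb. That table holds no strand or exons, so introns, exons and untranslated regions were not told apart. Promoter and microRNA sequences came from RefSeq tables, which are not complete. Heights were tested with limma 3.58.1 (trend) in R 4.3.3, and the rest was computed in Python 3.11.15 with pandas 2.3.3. The fit was run on simulated heights in which regions of like height shared 1 spread. That run cannot show false calls at regions whose replicates vary more than this. The library number limits the precision.

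The members and the 18 gene lists (510 genes) were chosen with earlier results of these data known. Genes were named by rule: the 15 stage markers, the 10 genes with the most gained and most lost regions, up to 4 per list and direction, and the 10 largest rises and falls by limma. Single regions without a rule (promoters, microRNA, PAX9 and TBX1 sites) were chosen after their values were seen.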

Additional observations from a re-analysis of the deposited data

How the results depend on the processing

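The number of gained and lost regions depended on where the line for a strong region was drawn: 1269 gained and 507 lost with 25000 strong regions per library, 14701 and 8840 with 100000, and 19815 and 6591 when strong meant a −log10 q of 5 or more. Leaving out 1 library in turn gave 5550 to 9599 gained and 3258 to 5843 lost. With 1 library of each stage, a choice made after seeing the data, 13645 were gained and 8552 lost for replicate 1, and 9447 and 7424 for replicate 2. Gained outnumbered lost in all of these settings, most narrowly without hESC replicate 1 (5550 gained, 5280 lost). In limma, 3067 regions were higher after quantile normalization, 1542 higher and 285 lower without centring, 2108 higher on the deposited fold over the local background, 1190 higher and 784 lower among regions strong in at least 1 library of each stage, 13393 and 11921 without the filter on peaks, and 2871 higher without trend. Lower calls outnumbered higher ones on the deposited fold (40.8% higher), without trend (44.2%) and without hAFE replicate 2 (46.0%). Leaving out 1 library gave 2399 to 4318 higher and 1422 to 2812 lower. The shift that centring removes was 0.30 (log2), and the median difference over all tested regions was 0.46 without it, 0.16 with it and about 0 after quantile normalization. For these changes the cause was not tested.

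The replicate numbers do not pair the samples: the deviations of same-numbered libraries correlated at -0.22. With the replicate block 2921 regions were higher and 2130 lower. With crossed numbers, a fit added after seeing the data, 5729 were higher and 5466 lower. The settings were also compared at 39 tested regions that had been picked by their result. They were the stage marker regions called under both scalings, and the largest rises and falls by limma. Tested marker regions without such a call were not among them. For the marker regions the call after quantile normalization was therefore fixed by the choice. None of the 39 turned direction, which says little on regions not picked in this way. All 39 were called after quantile normalization, 36 with the block, 28 without centring and 31 on the deposited fold, and between 34 and 37 without 1 library. Among regions strong in at least 1 library of each stage only 5 of the 39 could be tested, so that setting says nothing on the other 34. With 100000 strong regions 33 of 36 counts of list genes rose by over 1.5 times, and with a gene distance of 50 kb in place of 100 kb 7 of 36 fell by as much. The gained count rose by over 1.5 times without hESC replicate 2 (7072), hAFE replicate 1 (7880) or hAFE replicate 2 (9599), and the lost count without hESC replicate 1 (5280), hESC replicate 2 (5843) or hAFE replicate 2 (3692). The shallower library of each stage, with a background of 2.11 and 2.22, limits what can be called absent, and a peak below its limit of 300000 is not seen.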

Other observations

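Gained and lost regions could lie side by side. Of the 1298 genes with a lost region, 338 (26.0%) also had a gained one, which is 14.5% of the genes with a gained region, where 13.4% of all genes had a gained and 7.46% a lost region. Genes with more regions have more chances of both, and this was not adjusted for. In 76 cases (3.25% of lost regions) a gained region lay within 5 kb of a lost one, against 1.85% of the regions that were neither gained nor lost. Near CDON, a hedgehog co-receptor, a region with 20.9 and 32.9 in hESC and no peak in hAFE lay 759 bases from one with 39.2 and 34.3 in hAFE and no peak in hESC. Near SPATA7 the gap was 502 bases, between 18.0 and 34.2 in hESC and 70.3 and 58.7 in hAFE.

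Gained regions were unevenly spread over chromosomes, from 1.40% of the regions of chromosome 19 to 7.17% of those of chromosome 13. On the X chromosome the median log2 difference of tested regions was +0.45, above the 0.11 to 0.26 of the autosomes.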
